A study of Macaca mulatta with 95 samples.

Results

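Fibronectin, basement membrane and other matrix genes were followed in single cells of rhesus macaque (Macaca mulatta) embryos. The 9 genes are FN1, the laminin chains LAMA1 and LAMB1, the type IV collagen chains COL4A1 and COL4A2, the nidogen NID2, and SPARC, SERPINE2 and COL1A2. They were taken by name, with earlier results of these data known, as 9 of the 16049 genes in the expression table, and all 9 were found there. They are not all basement membrane components: COL1A2 is a chain of a fibrillar collagen, and SERPINE2 a secreted protease inhibitor.

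RNA was sequenced from 95 single cells of 7 stages, each cell as its own library. Embryos came from oocytes of hormone-stimulated females, were fertilised, and grew in HECM-9 medium with fetal bovine serum. Before each embryo was taken apart, a fluorescent dye stained its outer cells, and unstained cells were called inner. Letters A, B, D, G and H open the cell titles and are not explained in the labels. The 16-cell stage (16C, day 3) gave 3 outer and 2 inner cells of letter B, the early morula (EM, day 4) 5 outer and 5 inner cells of letter H, and the late morula (LM, day 4.5) 5 outer and 5 inner cells of letter D. The early blastocyst (EB, day 5) gave 6 outer cells of letter A and 10 inner cells, 5 of letter A, 3 of G and 2 of H. The middle blastocyst (MB, day 5.5) gave 5 outer cells of letter B and 12 inner cells, 4 each of B, G and H. All late and hatched blastocyst cells were inner, 15 of letter G and 4 of H in the late blastocyst (LB, day 6) and 9 of G and 9 of H in the hatched blastocyst (HB, day 7). A cell is named here by stage, position, letter and number, as in LB_inner G-11.

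Basement membranes are thin sheets on which epithelia rest. Laminins, each a trimer of an alpha, a beta and a gamma chain, form one polymer of the sheet, type IV collagen, a trimer of chains such as those of COL4A1 and COL4A2, forms another, and nidogens bind both. In the blastocyst the hypoblast, an epithelium that lines the cavity side of the inner cell mass, is known as a producer of basement membrane, and its mouse descendant, the parietal endoderm, secretes large amounts of laminin, type IV collagen and SPARC.

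No label names an embryo or an animal, so cells of a group cannot be treated as replicates: a group counts as 1 sample, no test was run, and every difference describes these cells. SDs are taken over cells. Stage, position and letter overlap, so outside comparisons within a letter they cannot be told apart. For 9 late blastocyst cells the source name says hatched, and these were kept as late blastocyst. Between 2358 and 7379 genes per cell reached 1 RPKM (reads per kilobase of gene, scaled to the reads of the cell). Relative depth, read from the steps of the low values, ran from 0.218 to 1.54 times that of the median cell and was lowest in the late morula, with medians of 0.399 in outer and 0.600 in inner cells. In the cell of median depth, 1 RPKM stood for about 157 reads of LAMA1 and 35.4 reads of SERPINE2. These reads are PCR copies and not separate molecules.

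The 70 blastocyst cells were clustered with the matrix genes left out, and clusters were named from marker lists. A cluster of 4 cells (LB_inner G-11, G-12 and G-17 and HB_inner G-14) is called hypoblast-like. Of 13 hypoblast markers with a value, 10 had a mean of 5 RPKM or more in it, and all 10 lay above the other cells. The other 3 never reached 1 RPKM in the cluster. In these 4 cells GATA4, a hypoblast transcription factor, stood at 141, 55.7, 238 and 242 RPKM. A cluster of 16 cells (7 LB of letter G and all 9 HB of letter H) is called epiblast-like. It had 7 of 12 epiblast markers above, counting those with a mean of 5 RPKM or more in or outside the cluster. The 13 trophectoderm-like cells (5 LB and 8 HB, all of letter G) come from 2 clusters. Counted the same way, these had 8 of 13 and 10 of 14 trophectoderm markers above. These 13 cells carry the label inner, although trophectoderm is the outer layer of a blastocyst, and their 5 LB cells are among the 9 of conflicting stage. The other 37 blastocyst cells stayed unnamed. PDGFRA, another hypoblast gene, was at 0 RPKM in the 4 hypoblast-like cells. GATA6, also on the hypoblast list, was not among the 10 markers that reached a mean of 5 RPKM in them. Only 13 of the 15 listed markers had a value, and whether GATA6 was 1 of these was not checked. Its level in these cells is therefore not given. Markers of other cell types were also read: the 7 fibroblast and the 7 cumulus markers had no gene with a mean of 5 RPKM or more over all cells. The summed level of the fibroblast list was at most 3.44 RPKM in a hypoblast-like cell and 108 RPKM in an epiblast-like one (where THY1 passed 5 RPKM). Of the 4 blood markers with a value only CD53 passed, and its level was not low. The summed blood list reached 715 RPKM in a cell. Its median was 27.1 RPKM in hypoblast-like, 116 in epiblast-like and 0.156 in trophectoderm-like cells, and 223 in the inner middle blastocyst cells of letter G.

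**Figure D1:**
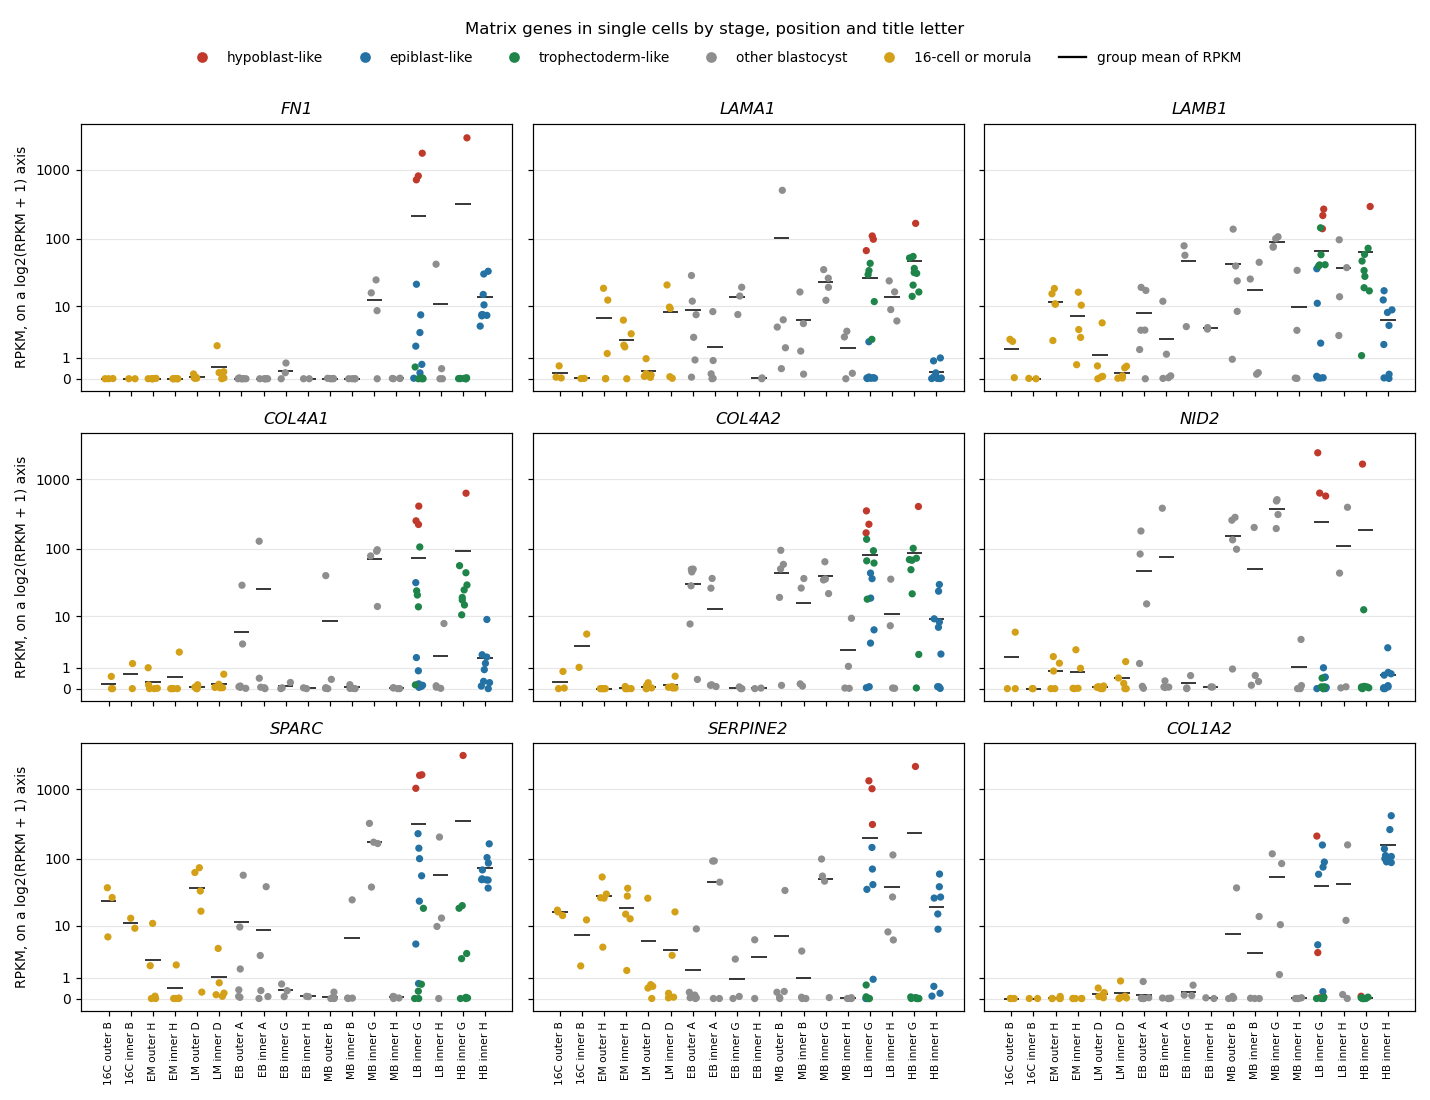
RPKM of the 9 genes in each of the 95 cells, on a log2(RPKM + 1) axis, by stage, position and title letter; each point is a cell, coloured by its named cluster, and the bar is the mean of RPKM in the group. The highest points of FN1, COL4A1, COL4A2, NID2, SPARC and SERPINE2 belong to the 4 hypoblast-like cells, while the highest COL1A2 points are epiblast-like and the highest LAMA1 point is an outer middle blastocyst cell.

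Before the blastocyst 5 of these genes were close to 0, while SERPINE2, SPARC and the laminin chains were found in part of the cells. In the 25 cells of the 16-cell and morula stages COL1A2 reached at most 0.784 RPKM, FN1 1.98, COL4A1 2.34, COL4A2 5.06 and NID2 5.45 RPKM. SERPINE2 was above 5 RPKM in 14 of the 25 cells, with a lowest value of 0, a median of 12.9 and a highest of 54.3 RPKM. SPARC was above 5 RPKM in 10 of them, from 0 to 74.1 RPKM with a median of 1.95. LAMB1 was at 5 RPKM or more in 7 and LAMA1 in 6 of the 25 cells, reaching 18.7 and 21.1 RPKM.

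The laminin chains were present in the early morula, LAMB1 in most of its cells. LAMB1 stood at 10.9, 18.7, 10.7, 15.5 and 2.53 RPKM in the outer and at 16.4, 0.589, 2.91, 4.07 and 10.3 RPKM in the inner early morula cells, so the positions overlapped. Its mean over these 10 cells was 9.27 RPKM (SD 6.44), against 1.03 (1.39) in the 16-cell stage and 0.708 (1.64) in the late morula. The late morula cells had the lowest median relative depth, 0.542 beside 1.01 in the 16-cell stage and 1.05 in the early morula, with overlapping ranges, and each of the 3 stages has its own letter, so stage and letter cannot be told apart there. LAMA1 averaged 4.58 RPKM (6.28) in the early and 4.14 (7.09) in the late morula, where inner cells D-01, D-04 and D-10 stood at 21.1, 9.65 and 9.15 RPKM and the others under 1 RPKM.

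Over all 70 blastocyst cells against the 25 earlier cells, all 9 genes were higher at the level used throughout, a difference of at least 2-fold in the ratio of means after adding 1 RPKM to each, among genes whose mean reached 5 RPKM in at least 1 of the groups compared. This ratio understates the change of genes with low values. By the same measure 25.4% of 7057 genes were higher and 17.6% lower. The median log2 ratio was 4.84 over the 9 genes and 0.17 over all genes measured. Largest were FN1, from 0.112 RPKM (SD 0.395) to 90.5 (411), and NID2, from 0.611 (1.23) to 127 (368). Part of this rests on few cells: without the 4 hypoblast-like cells 7 of 8 measured genes were higher, SERPINE2 was at 0.27 log2 units in place of 2.51, and FN1, whose mean was then under 5 RPKM, at 2.12 in place of 6.36. Without HB_inner G-14 alone SERPINE2 was at 1.90 and FN1 at 5.53 log2 units. When letter H alone was used on both sides, 5 of 7 measured genes were higher, with LAMA1 at -0.34 and SERPINE2 at -0.39 log2 units. For these subsets of cells the shares among all genes were not worked out.

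Summed over the 9 genes and the 70 blastocyst cells, 64.6% of the RPKM lay in the 4 hypoblast-like cells, but this share differed by gene. It was 96.0% for FN1, 81.0% for SERPINE2, 75.6% for SPARC, 62.1% for COL4A1 and 59.3% for NID2. It was 40.5% for COL4A2, 34.4% for LAMB1, 27.3% for LAMA1 and 8.77% for COL1A2, of which 73.4% lay in the epiblast-like cells. Summed over the 9 genes, the level was 6926 RPKM (SD 3333) in the 4 hypoblast-like cells, 251 (113) in the 16 epiblast-like and 171 (74.4) in the 13 trophectoderm-like cells. Each hypoblast-like cell had 8 or 9 of the 9 genes at 5 RPKM or more. Genes reaching 1 RPKM averaged 4002 (464) per hypoblast-like, 5179 (1065) per epiblast-like and 5119 (1341) per trophectoderm-like cell. Relative depth ran from 1.04 to 1.27 in the hypoblast-like cells, beside medians of 0.994 and 0.992 in the other 2 sets. Whether these differences in detected genes and depth bear on the summed levels was not tested.

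**Figure D2:**
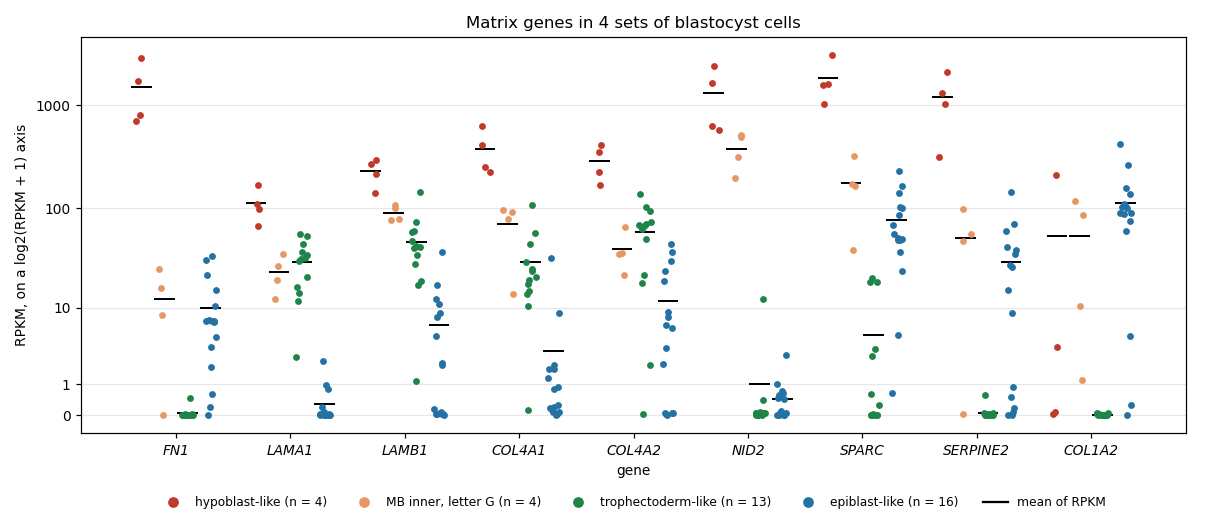
RPKM of the 9 genes on a log2(RPKM + 1) axis in hypoblast-like (n = 4), inner middle blastocyst letter G (n = 4), trophectoderm-like (n = 13) and epiblast-like cells (n = 16), 1 point per cell with the mean of RPKM as a bar. The hypoblast-like cells lie above the other sets for FN1, LAMA1, COL4A1, COL4A2, NID2, SPARC and SERPINE2, overlap a trophectoderm-like cell for LAMB1, and are spread from near 0 to 213 RPKM for COL1A2. The share of all genes without overlap was not worked out.

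Against the epiblast-like cells 8 of the 9 genes were higher in hypoblast-like cells and COL1A2 was lower, where 26.1% of 7148 genes were higher and 35.3% lower. Against the trophectoderm-like cells all 9 were higher, where 24.4% of 7127 genes were higher and 35.9% lower. The median log2 ratio over the 9 genes was 5.29 against epiblast-like and 5.76 against trophectoderm-like cells, beside all-gene medians of -0.21 and -0.28. Because the 9 genes were chosen with earlier results of these data known, their contrast with all genes is a description and not independent support. The COL1A2 ratio against trophectoderm-like cells, 5.76 log2 units, was 1.13 without LB_inner G-12. With letter G cells alone on both sides, 8 genes were higher, and the share among all genes was not worked out. COL1A2 was there level with the 7 epiblast-like cells of that letter, at -0.04 log2 units. That value rests on LB_inner G-12 too, and is -4.67 without it, an alternative added after seeing the data. Both comparisons use the same 4 hypoblast-like cells. For these sets the share of all genes without overlap was not worked out, so a lack of overlap given below for a gene only describes that gene.

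Among the laminin chains, LAMA1, the alpha chain of the laminin best known from early embryos, stood at 99.1, 67.8, 111 and 168 RPKM in LB_inner G-11, G-12, G-17 and HB_inner G-14. In epiblast-like cells LAMA1 ran from 0.00540 to 2.39 RPKM with a median of 0.0299, and in trophectoderm-like cells from 2.67 to 55.7 with a median of 31.4. The 3 sets did not overlap for LAMA1. Mean LAMA1 was 111 RPKM (SD 42.0) in hypoblast-like, 0.295 (0.633) in epiblast-like and 29.6 (16.0) in trophectoderm-like cells. With 1 RPKM added to each mean, the first was 86.8-fold the epiblast-like and 3.68-fold the trophectoderm-like mean.

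LAMB1, the beta chain that pairs with LAMA1, stood at 270, 218, 141 and 294 RPKM in the hypoblast-like cells. Trophectoderm-like cells ran from 1.15 to 145 RPKM for LAMB1 with a median of 41.9, and epiblast-like cells from 0.0101 to 36.8 with a median of 2.17. All hypoblast-like cells were above every epiblast-like cell, and G-17 lay below the highest trophectoderm-like cell, LB_inner G-04. LAMC1, the gamma chain of the same trimer, was fixed as a partner and averaged 89.9 RPKM (SD 83.9) in hypoblast-like, 36.5 (24.2) in trophectoderm-like and 8.36 (8.04) in epiblast-like cells. All 3 chains of the trimer thus had their lowest mean in epiblast-like cells.

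COL4A1 and COL4A2 encode the type IV collagen chains found in nearly all basement membranes. COL4A1 stood at 254, 225, 413 and 633 RPKM in the hypoblast-like cells, from 0.132 to 107 with a median of 21.0 in trophectoderm-like cells, and from 0 to 32.1 with a median of 0.536 in epiblast-like cells. COL4A2 stood at 170, 227, 353 and 408 RPKM in the hypoblast-like cells, from 0.0221 to 138 with a median of 67.0 in trophectoderm-like cells, and from 0.00747 to 44.4 with a median of 6.27 in epiblast-like cells. The hypoblast-like cells were above all cells of both other sets for both chains. As a level per length, mean COL4A1 was above mean COL4A2 in hypoblast-like cells (381 RPKM, SD 187, against 290, SD 110) and below it in trophectoderm-like (29.6, SD 27.3, against 58.9, SD 40.4) and epiblast-like cells (3.16, SD 8.01, against 11.8, SD 14.5), each gap smaller than the larger SD. The epiblast-like COL4A1 mean rests on LB_inner G-20: without it the ratio of hypoblast-like to epiblast-like means is 7.42 in place of 6.52 log2 units.

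NID2, a nidogen that links laminin to type IV collagen, had the largest ratio of the 9 genes against epiblast-like cells and the third largest, after FN1 and SERPINE2, against trophectoderm-like cells. It stood at 2410, 636, 577 and 1659 RPKM in the hypoblast-like cells. In epiblast-like cells it reached at most 2.85 RPKM, and in trophectoderm-like cells 12.5 RPKM, with medians of 0.0799 and 0.0549. The NID2 mean was 1321 RPKM (SD 880) in hypoblast-like, 0.432 (0.720) in epiblast-like and 1.03 (3.46) in trophectoderm-like cells. With 1 RPKM added to each mean, which understates ratios to low means, the first was 923-fold the epiblast-like and 652-fold the trophectoderm-like mean. In log2 units the latter is 9.35, and 10.27 without HB_inner G-05, the trophectoderm-like cell at 12.5 RPKM. NID1, the other nidogen, averaged 224 RPKM (45.5), 2.05 (5.24) and 8.36 (22.0) in the 3 sets.

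FN1 encodes fibronectin, a matrix glycoprotein bound by integrins. It stood at 1714, 809, 711 and 2850 RPKM in the hypoblast-like cells and at no more than 0.474 RPKM in any trophectoderm-like cell. Epiblast-like cells ran from 0.0167 to 33.8 RPKM with a median of 7.17, below all hypoblast-like cells and overlapping the trophectoderm-like ones at the low end. FN1 averaged 13.7 RPKM (SD 10.9) in the 9 hatched and 5.04 (7.75) in the 7 late epiblast-like cells, which also differ in letter, and these ranges overlap.

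SPARC encodes a collagen-binding glycoprotein. It stood at 1586, 1616, 1032 and 3055 RPKM in the hypoblast-like cells, from 0.641 to 230 with a median of 53.8 in epiblast-like cells, and from 0 to 20.5 with a median of 0.273 in trophectoderm-like cells. The hypoblast-like cells were above every other blastocyst cell, and the epiblast-like and trophectoderm-like cells overlapped. The hypoblast-like mean of 1822 RPKM (865) was 23.6-fold the epiblast-like mean of 76.2 (60.8), after adding 1 RPKM to each.

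SERPINE2 encodes protease nexin-1, a secreted inhibitor of thrombin and of plasminogen activators. It stood at 1324, 1019, 312 and 2125 RPKM in the hypoblast-like cells. Epiblast-like cells ran from 0 to 146 RPKM with a median of 20.9, and trophectoderm-like cells reached at most 0.562 RPKM. The hypoblast-like cells were above all others, and SERPINE2 in trophectoderm-like cells lay below all 10 early morula cells, whose lowest value was 1.52 RPKM.

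COL1A2, the alpha 2 chain of type I collagen, followed another order. It stood at 0.0238, 213, 3.55 and 0.0779 RPKM in the hypoblast-like cells, so their mean of 54.0 RPKM (SD 106) comes from LB_inner G-12. Epiblast-like cells ran from 0 to 417 RPKM with a median of 95.1, all 9 hatched ones at 88.0 or more, and trophectoderm-like cells reached at most 0.0505 RPKM. The ratio of hypoblast-like to epiblast-like means was -1.05 log2 units, and it moved to -5.68 without G-12, the cell with COL1A2. It was under 2-fold when any of G-11 (-0.64), G-17 (-0.67), HB_inner G-14 (-0.64), HB_inner H-07 (-0.92) or HB_inner H-09 (-0.77) was left out. COL1A1, the partner chain of type I collagen, was low throughout, at 2.41 RPKM (3.87) in epiblast-like and 0.859 (1.72) in hypoblast-like cells.

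The trophectoderm-like cells carried the laminin and type IV collagen chains and little of the rest. Against the epiblast-like cells LAMA1, LAMB1, COL4A1 and COL4A2 were higher and FN1, SPARC, SERPINE2 and COL1A2 lower among 8 measured genes, where 22.8% of 7151 genes were higher and 20.2% lower. The ratios ran from 2.22 log2 units (COL4A2) to 4.56 (LAMA1) for the higher genes and from -3.39 (FN1) to -6.81 (COL1A2) for the lower ones, and COL4A1, at 2.88, was at 3.78 without LB_inner G-20. Only LAMA1 had values that did not overlap between these 2 sets, and the share of all genes without overlap was not worked out. In the 5 late and in the 8 hatched trophectoderm-like cells, which formed separate clusters, the means of these 4 genes lay above those of the other 5. Single cells could differ, as in HB_inner G-15, with SPARC at 18.7 RPKM above LAMA1 at 16.5 and COL4A2 at 2.09. The means of the 4 ran from 24.7 (LAMA1) to 75.8 RPKM (COL4A2) in late and from 27.3 (COL4A1) to 48.4 RPKM (COL4A2) in hatched cells, and the other 5 averaged at most 5.67 RPKM. The late COL4A1 mean of 33.2 RPKM (SD 42.0) is 14.8 without LB_inner G-27, and the hatched one was 27.3 (16.0).

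A second set of cells with high values was the inner middle blastocyst cells of letter G, which clustered with other inner cells and stayed unnamed. In MB_inner G-02, G-03, G-04 and G-10, NID2 stood at 490, 313, 512 and 197 RPKM, while the 4 inner cells of letter H at the same stage reached at most 4.07 RPKM. SPARC stood at 166, 173, 324 and 38.6 RPKM in the G cells and at most at 0.0713 in the H cells, and LAMB1 at 77.8, 101, 75.9 and 108 RPKM against at most 34.8. All 9 genes were higher in G than in H, where 34.2% of 6687 genes were higher and 25.6% lower. The groups overlapped for FN1 alone, because G-10 was at 0, but the share of all genes without overlap was not worked out. The H values of LAMB1 and COL4A2 come largely from MB_inner H-09, without which their ratios are 5.30 and 4.89 in place of 3.10 and 3.50 log2 units. NID2 was at 8.51 in place of 7.53 without MB_inner H-03, and COL1A2 at 5.05 in place of 5.76 without MB_inner G-10.

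GATA4 was between 103 and 141 RPKM in these 4 G cells and 0 in the H cells. The summed hypoblast marker level ran from 280 to 4546 RPKM in G and from 5.59 to 60.0 in H. The larger sums came mostly from the marker APOA1, at 2836, 1253, 4368 and 105 RPKM in G-02, G-03, G-04 and G-10 and at most 38.3 in H. Relative depth overlapped, at 0.869 to 1.05 in G and 0.712 to 1.13 in H. Letter, embryo and cell type cannot be told apart in this pair.

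Against these 4 middle blastocyst cells, the hypoblast-like cells of the late and hatched blastocyst were higher for 8 of the 9 genes, where 28.6% of 6870 genes were higher and 35.6% lower. The differences, taken with 1 RPKM added to each mean, were uneven in size. FN1 was 12.4 RPKM (SD 10.7) in the middle blastocyst cells and 1521 (995) in the hypoblast-like ones, a 113-fold difference, and SERPINE2 and SPARC differed 23.2-fold and 10.3-fold. NID2 differed 3.49-fold, from 378 (150), and LAMB1 2.53-fold, from 90.7 (16.2). The groups did not overlap for any of these 8 genes, but the share of all genes without overlap was not worked out. COL1A2 had means of 54.0 and 53.7 RPKM. The first of these rests on LB_inner G-12: without it the COL1A2 mean is 1.22 RPKM, and its ratio -4.62 in place of 0.01 log2 units.

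Beyond letter G, a late blastocyst cell of letter H, LB_inner H-14, carried all 9 genes above 5 RPKM, with NID2 at 398, SPARC at 206, COL1A2 at 159, FN1 at 42.9 and GATA4 at 87.6 RPKM. The 3 other late blastocyst cells of letter H reached at most 44.4 RPKM for NID2 and 0.394 for FN1. All 4 are among the cells of conflicting stage.

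**Figure D3:**
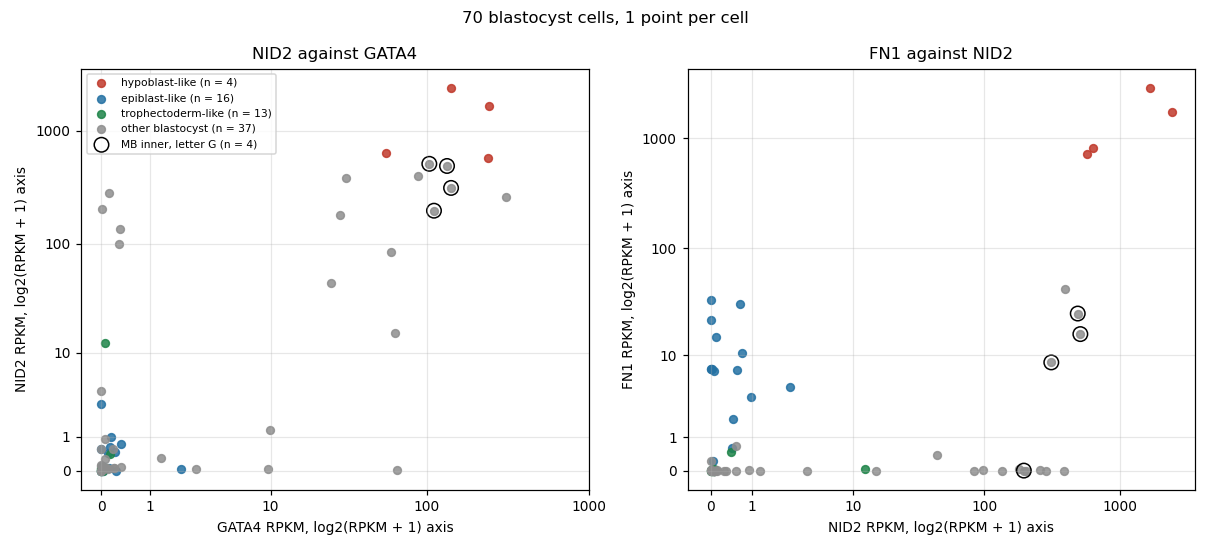
NID2 against GATA4 (left) and FN1 against NID2 (right) in 70 blastocyst cells, both axes log2(RPKM + 1), 1 point per cell, coloured by cluster and with the 4 inner middle blastocyst cells of letter G circled. High NID2 mostly goes with GATA4, with 4 cells near 100 to 300 RPKM of NID2 at low GATA4, and FN1 is above 100 RPKM in the 4 hypoblast-like cells alone.

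NID2 was the gene whose high cells matched the hypoblast transcription factors best. Of 20 blastocyst cells with NID2 at 5 RPKM or more, 16 had SOX17 and 15 had GATA4 at that level, out of 18 cells with SOX17 and 18 with GATA4. The cells with NID2 but without SOX17 were MB_outer B-01 and B-06, MB_inner G-10 and HB_inner G-05. FN1 reached 5 RPKM in 18 cells, of which 8 had GATA4 and 11 had NANOG, a pluripotency factor that 38 cells had. In the 11 cells with FN1 and NANOG, FN1 was at most 42.9 RPKM.

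High NID2 was also found in blastocyst cells stained as outer. In the outer middle blastocyst cells B-01, B-02, B-03, B-06 and B-07 NID2 stood at 98.8, 285, 259, 135 and 0.910 RPKM, and in the inner cells of the same letter B-02, B-03, B-05 and B-06 at 0.264, 0.118, 204 and 0.543 RPKM. In the outer early blastocyst cells it ran from 0.0106 to 181 with a median of 8.35 RPKM, and in EB_inner A-08 it was 386 RPKM while the 4 other inner cells of letter A were under 0.3. Both positions therefore held cells with and without NID2. FN1 was at or under 0.0287 RPKM in all of these cells. Markers of both lineages were found among the outer middle blastocyst cells, those of hypoblast unevenly. Their trophectoderm marker sums ran from 5078 to 63817 RPKM, above the 4 hypoblast-like cells, which reached 3154. Their hypoblast marker sums ran from 54.1 to 4347 RPKM, the highest within the hypoblast-like range of 3412 to 5687. Outer cells B-02 and B-03, the highest for NID2, had SOX17 at 308 and 599.9 RPKM, and GATA4 was at 0.115 and 310 RPKM in them.

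Outer and inner cells differed in few of these genes in a way that held when single cells were left out. In early morula cells 1 of 3 measured genes, LAMA1, was higher in outer than inner cells (16.1% of 6576 genes higher and 9.12% lower), and without EM_outer H-03 it stood at 0.28 in place of 1.04 log2 units. It was also under 2-fold without outer H-04 (0.73) or without inner H-02 (0.97), H-03 (0.80) or H-08 (0.98). In late morula cells SPARC was higher and LAMA1 lower among 3 measured genes (31.2% of 4868 genes higher and 26.9% lower), and 2 genes were higher when inner D-07 was left out. The SPARC ratio of 4.23 log2 units was 4.93 without inner D-04, and the LAMA1 ratio of -2.82 was -2.16 without inner D-01. SPARC stood at 0.235, 74.1, 33.8, 16.9 and 63.1 RPKM in the outer and at 0.195, 4.23, 0.679, 0.133 and 0.0752 in the inner late morula cells. Outer cell D-01 alone lay within the inner range, and relative depth was lower in the outer cells, at a median of 0.399 against 0.600.

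At the early blastocyst, with letter A on both sides, LAMA1, LAMB1 and COL4A2 were higher in outer cells and COL4A1 and SERPINE2 lower among 7 measured genes (29% of 5350 genes higher and 32.7% lower). The COL4A1 value rests on EB_inner A-08 at 129 RPKM: without that cell its ratio is 2.53 in place of -2.05 log2 units. It is -3.97 without outer cell A-05. LAMA1, at 1.78 log2 units, was 0.98 without outer cell A-08 and 2.95 without inner cell A-07. LAMB1, at 1.26, was 0.81 without outer cell A-06, 0.89 without outer cell A-08 and 2.70 without inner cell A-08. COL4A2, at 1.20, was 0.90 without any 1 of the inner cells A-03, A-05 and A-07 and 2.04 without inner cell A-10. The number of genes higher was 1 without outer cell A-08 and 5 without inner cell A-08. Of the 5 genes called, SERPINE2 alone stayed past 2-fold whichever cell was left out. SERPINE2 stood at 93.0, 92.5, 0, 45.6 and 0 RPKM in the inner cells and at most at 8.96 in the outer cells, so the positions overlapped through the inner cells at 0. The SERPINE2 ratio of -4.21 was -5.45 log2 units without outer cell A-08.

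At the middle blastocyst, with letter B on both sides, 6 of 8 measured genes were higher in outer cells and SPARC lower (36.3% of 4904 genes higher and 24.7% lower), but most of these rest on 1 cell. LAMA1 stood at 503, 1.78, 6.00, 0.395 and 4.51 RPKM in the outer cells, and without B-01 its ratio is -0.71 in place of 3.93 log2 units. Without the same cell LAMB1 is at 0.03 in place of 1.19 and COL4A2 at 0.98 in place of 1.44, and LAMB1 is at 0.80 without inner cell B-02 or B-03. Without outer cell B-03 COL4A1 is at 0.08 in place of 3.15, without outer cell B-02 SERPINE2 is at -0.79 in place of 2.03, and without inner cell B-02 SPARC is at 0.07 in place of -2.77. Of the 6 genes NID2 alone, at 1.59 log2 units, stayed above 2-fold whichever cell was left out, and its positions overlapped. Without inner cell B-05, the inner cell with high NID2, its ratio is 6.91, and LAMA1, LAMB1 and COL4A2 are then at 4.99, 2.16 and 2.21. SERPINE2 is at 2.98 without inner cell B-02.

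Later inner cells were compared with earlier ones within a letter. In letter G, 24 late and hatched cells against 7 early and middle blastocyst cells, FN1, COL4A2, SPARC and SERPINE2 were higher among 9 measured genes and no gene was lower (22.6% of 7172 genes higher and 18.1% lower). The 24 cells mix all 3 named sets: FN1 averaged 255 RPKM (SD 681) against 7.22 (9.97), at 4.96 log2 units. Without HB_inner G-14 FN1 was at 4.12, SPARC at 1.07 in place of 1.71 and SERPINE2 at 2.09 in place of 2.81, and these were 5.61 without MB_inner G-02 for FN1 and 2.37 and 3.51 without MB_inner G-04 for SPARC and SERPINE2. When log2 values were averaged, so that a high cell weighs less, 1 gene was higher and 3 lower, with SPARC at -0.21 and SERPINE2 at -0.14 log2 units.

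In letter H, 13 late and hatched cells against 6 earlier ones, 6 of 7 measured genes were higher and LAMB1 was not (32.3% of 7006 genes higher and 17.1% lower). The 9 hatched cells are epiblast-like. COL1A2 went from 0.00792 RPKM (0.0123) to 122 (113) and SPARC from 0.0459 (0.0308) to 68.3 (59.9). NID2 rested on the late blastocyst cells, which are of conflicting stage, and stood at -0.15 in place of 4.37 log2 units without them and at 1.58 without LB_inner H-14. Leaving out earlier cells moved NID2 to 5.08 (MB_inner H-03), COL4A2 from 1.94 to 3.09 (MB_inner H-09) and SERPINE2 from 3.74 to 4.73 (EB_inner H-03).

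**Figure D4:**
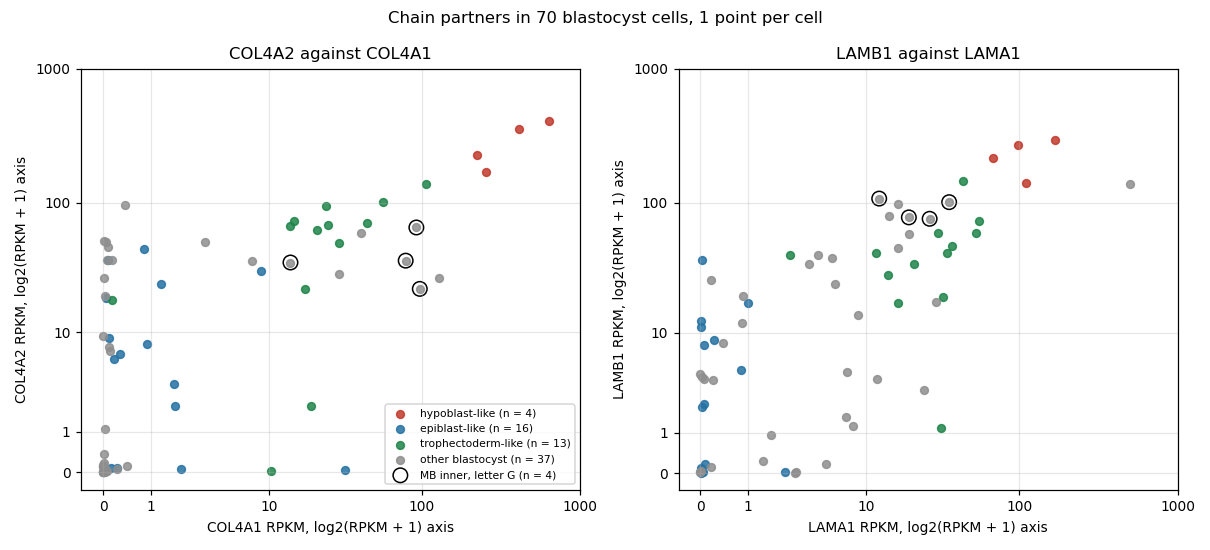
COL4A2 against COL4A1 (left) and LAMB1 against LAMA1 (right) in 70 blastocyst cells, both axes log2(RPKM + 1), 1 point per cell, coloured by cluster and with the inner middle blastocyst cells of letter G circled. COL4A2 is above 10 RPKM in many cells with COL4A1 near 0, and the hypoblast-like cells are high for both chains in both panels.

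Chains that assemble together did not always both reach 5 RPKM in the same cell. A lower value does not show that a chain was absent. At 5 RPKM or more, COL4A1 was in 26 and COL4A2 in 44 of the 70 blastocyst cells, and 23 had both, which is 88.5% of the COL4A1 cells and 52.3% of the COL4A2 cells. In epiblast-like cells 8 of 9 cells with COL4A2 were without COL4A1, while in trophectoderm-like cells 10 cells had both. LAMA1 was in 35 and LAMB1 in 41 cells, 28 with both. COL1A2 was in 21 cells and COL1A1 in 4, 3 of them with both. All 18 cells with FN1 had SPARC, out of 33 cells with SPARC, and 20 of 21 cells with COL1A2 had it.

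**Figure D5:**
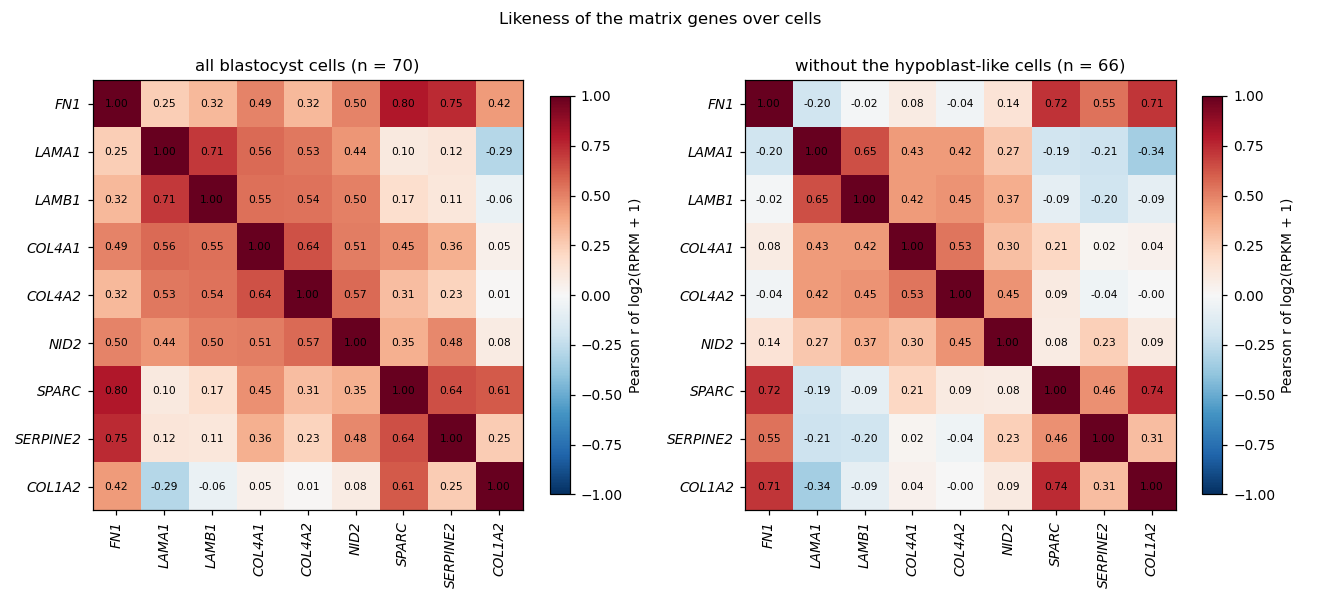
Pearson correlation of log2(RPKM + 1) between each pair of the 9 genes over 70 blastocyst cells (left) and without the hypoblast-like cells (right, n = 66), with r printed in each square. FN1, SPARC and SERPINE2 go together, as do LAMA1 with LAMB1 and COL4A1 with COL4A2, while COL1A2 has its highest value with SPARC and a negative one with LAMA1 in both panels.

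As a description over the same 70 cells, which share letters, may share embryos, and differ in depth, Pearson r of log2(RPKM + 1) was 0.80 between FN1 and SPARC, 0.75 between FN1 and SERPINE2, 0.71 between LAMA1 and LAMB1 and 0.64 between COL4A1 and COL4A2. Without the hypoblast-like cells these were 0.72, 0.55, 0.65 and 0.53 over 66 cells. SPARC and COL1A2 had an r of 0.61, or 0.74 without those cells, and LAMA1 and COL1A2 an r of -0.29.

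The genes most like each member were sought among 7925 genes outside the matrix lists, by r over the 70 cells. NID2 was closest to GAL3ST1, a sulfotransferase (0.85), SOX17 (0.83) and GATA4 (0.79), and these stayed at 0.80, 0.78 and 0.72 without the hypoblast-like cells. FN1 was closest to ENPP1, an ectonucleotidase (0.88), GPC3, a glypican (0.77), and ALDH1A1, a retinaldehyde dehydrogenase (0.74), and without the hypoblast-like cells these were 0.68, 0.15 and 0.08. ENPP1 was also first for SPARC (0.68, and 0.49 without those cells) and for SERPINE2 (0.64, and 0.34 without them). SERPINE2 was next closest to GPC3 (0.62, and 0.20 without them) and MGST2 (0.60, and 0.53).

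For the laminins PLAC8 was first, at 0.80 with LAMA1 and 0.71 with LAMB1. LAMA1 was next closest to LRP2, the endocytic receptor megalin (0.68), and S100A16 (0.65), and LAMB1 to ADAM19 (0.61) and DLC1 (0.56). The type IV collagen chains shared ADAM19, a membrane metalloprotease (0.71 with COL4A1, 0.58 with COL4A2), and ANXA4 (0.67 and 0.55), followed by FOXA2 (0.66) for COL4A1 and CD24 (0.54) for COL4A2. COL1A2 was closest to THBS2, a thrombospondin (0.71), and UNC5B, a netrin receptor (0.71), but within stage and letter these were 0.36 and 0.47.

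The wider matrix machinery was read from a list of 76 other genes, of which 65 had a value. Against epiblast-like cells 20 of 28 measured genes were higher and 3 lower in hypoblast-like cells (median log2 ratio 1.71, where 26.1% of all genes measured were higher and 35.3% lower), and against trophectoderm-like cells 16 of 27 were higher and 4 lower (1.28, where 24.4% were higher and 35.9% lower). Other basement membrane chains and components were higher in 4 of 4 and 3 of 4 measured genes, with none lower. Collagen and secretion enzymes were higher in 7 of 11, with 1 lower, and in 4 of 10. Interstitial and matricellular genes were higher in 3 of 4, with 1 lower, and in 3 of 3, and receptors in 4 of 6 and in 5 of 7, with 2 lower in the latter. Proteases and their inhibitors split, with 2 of 3 higher and 1 lower against epiblast-like cells, and 1 of 3 higher and 2 lower against trophectoderm-like cells (median log2 ratio -2.13). Of 16 genes called the same way in both comparisons, the 10 with the largest ratio are named here.

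NID1 has been given above. TIMP1, an inhibitor of metalloproteases, averaged 127 RPKM (SD 43.5) in hypoblast-like, 13.1 (34.3) in epiblast-like and 0.0253 (0.0639) in trophectoderm-like cells. SERPINH1, the collagen chaperone HSP47, averaged 488 (101), 93.7 (52.9) and 24.2 (38.9), and 590 (250) in the inner middle blastocyst cells of letter G. ITGB5, an integrin beta chain, averaged 209 (114), 36.6 (43.4) and 40.6 (29.3), and ITGA5, the alpha chain of the classical fibronectin receptor, 20.5 (23.7), 1.13 (2.68) and 0.949 (2.91).

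VCAN, a large proteoglycan, averaged 80.8 RPKM (SD 132) in hypoblast-like cells, VTN, vitronectin, 47.4 (88.0), LAMA2, another laminin alpha chain, 13.3 (15.3), and COL6A2, a type VI collagen chain, 9.46 (6.04). For VCAN, VTN, LAMA2 and ITGA5 the SD over the 4 cells exceeds the mean. MMP2, a gelatinase that cleaves type IV collagen, was the 1 of these 10 that was lower in hypoblast-like cells, at 0.0256 RPKM (0.0339) against 46.8 (125) in epiblast-like and 29.8 (37.9) in trophectoderm-like cells. HSPG2, the basement membrane proteoglycan perlecan, averaged at most 0.568 RPKM in the 3 sets.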

How the data were processed

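The deposited table holds 1 value per gene and cell and names no unit. The values were read as RPKM made by the authors, since each cell sums to between 557059 and 1000590 and low values of the 9 genes are whole multiples of a step set by gene and cell (100% within 0.05 reads). FastQC, TopHat2 version 2.1.0, HTSeq and DESeq2 are named, with no role, per the submitters' processing notes. No coordinates are printed, as the build and annotation are not given in the sources used here. Names were checked in the RefSeq gene table of rhesus macaque. All 95 value columns were matched by title and 0 were left over. Raw counts had been thought possible, and the ratio of mean RPKM was used in their place.

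Groups were summarised by the mean, SD, lowest, median and highest RPKM. Ratios are log2 of (mean + 1) over (mean + 1), called at 2-fold among genes whose mean reached 5 RPKM in a group compared, over 12 comparisons without tests. Of these 3 were added after seeing the data (trophectoderm-like against epiblast-like, letter G against H, and hypoblast-like against letter G middle blastocyst cells). Blastocyst cells were clustered (Ward, 10 principal components, 1000 most variable of 7925 genes with at least 10 RPKM in 5 cells, matrix genes left out). A cluster was named when at least 50% of a lineage's measured markers, and at least 3, lay 1 log2 unit or more above the other cells. A name was refused where the top 10 genes by fold, matrix genes left out, held more markers of another lineage. The 7 clusters replace the 5 first planned, because 1 of those 5 held 9 cells with 8 of 10 hypoblast and 6 of 13 trophectoderm markers above. That choice, and the way the top 10 genes enter the naming, came after seeing the data. The 9 genes and all lists were chosen with earlier results of these data known. Named genes are all 9, their partners LAMC1, COL1A1, NID1 and HSPG2, up to 10 other matrix genes called the same way in both hypoblast-like comparisons, and the 3 most correlated genes of each, some of which are not reported here. The ratio script was tested on simulated data. Alternatives were a pseudocount of 10, no filter, median-of-ratios scaling, means of log2 values, other cluster settings, single letters, and leaving out each cell or the 9 cells of conflicting stage. Python 3.11.15, numpy 2.4.6, pandas 2.3.3 and scipy 1.17.1 were used.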

Additional observations from a re-analysis of the deposited data

Results flagged for a closer look

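In 63 pairs of gene and group, with groups of 4 to 10 cells, the highest or lowest cell was compared on the log2(RPKM + 1) scale with the others of its group, and 18 stood apart by Dixon's criterion. Chance alone marks about 1 in 20 such groups, and cells of a group are of mixed type.

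HB_inner G-14, the hypoblast-like cell among 8 trophectoderm-like hatched cells of letter G, stood apart with FN1 at 2850, COL4A1 at 633, NID2 at 1659, SPARC at 3055 and SERPINE2 at 2125 RPKM. LB_inner H-14 stood apart with FN1 at 42.9 RPKM. EB_inner A-08, a cell with SOX17 at 1051 RPKM, stood apart with COL4A1 at 129 and NID2 at 386 RPKM.

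In the outer middle blastocyst LAMA1 was 503 RPKM in B-01, SERPINE2 34.4 in B-02, COL4A1 40.8 and COL1A2 37.6 in B-03, and NID2 was low, at 0.910, in B-07. In the inner middle blastocyst of letter B, NID2 was 204 RPKM in B-05 and SPARC 25.0 in B-02. Among the inner middle blastocyst cells of letter G the low cells were G-02, with COL4A1 at 14.1 RPKM, and G-10, with SERPINE2 at 0.0303 RPKM. In the outer late morula SERPINE2 was 26.4 RPKM in D-10.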

How the results depend on the processing

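No paired analysis was possible because no result comes from a test and the cell numbers only name cells. The count of the 9 genes that were higher stayed within 1.5 times its value under all alternatives run except these. For outer against inner early morula cells (1 gene) it was 0 with a pseudocount of 10, 2 with no filter, 0 with median-of-ratios scaling and 0 with means of log2 values. With a pseudocount of 10 it was 0 for the early (3 genes) and 3 for the middle blastocyst (6 genes). For later against earlier inner cells of letter G (4 genes) it was 1 with means of log2 values, and for blastocyst against earlier cells (9 genes) 5 with letter H alone. The causes were not tested, and shares among all genes were not worked out under the alternatives. Leaving out each cell in turn gave 0 to 1 for the early morula, 1 to 2 for the late morula, 1 to 5 for the early and 4 to 7 for the middle blastocyst, 4 to 6 for letter G, 5 to 7 for letter H, 8 to 9 for hypoblast-like against trophectoderm-like cells, and no change in the other 5 comparisons.

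Ratios that changed sign were COL4A1 in the early blastocyst (2.53 without EB_inner A-08) and, in the middle blastocyst, LAMA1 (-0.71 without outer B-01), SERPINE2 (-0.79 without outer B-02) and SPARC (0.073 without inner B-02). With means of log2 values SPARC (-0.21) and SERPINE2 (-0.14) changed sign in letter G and SERPINE2 (-0.54) in blastocyst against earlier cells. NID2 in letter H did so without the 9 cells of conflicting stage (-0.15), and LAMA1 (-0.34) and SERPINE2 (-0.39) in blastocyst against earlier cells with letter H alone. Of 444 ratios of single genes under the other alternatives 6 changed sign. Another 372 shifted by less than the SD of log2(RPKM + 1) over cells, pooled over both groups, and 66 shifted further. That SD is a wide margin, so the 372 include ratios that fell under 2-fold. An example is SERPINE2 in blastocyst against earlier cells, at 0.27 in place of 2.51 without the hypoblast-like cells. Scaling moved the all-gene median by over 0.1 in all 12 comparisons, for instance from -0.21 to 0.48 for hypoblast-like against epiblast-like cells. With 4 clusters no hypoblast-like cluster was found, so no value is given, and 5 or 6 clusters gave 8 higher genes against both other sets. The hypoblast-like results rest on 4 cells of 1 letter.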
